A study of Rattus norvegicus with 64 samples.

Results

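The lungs of rats that had inhaled fracking sand dust at 10 mg/m3 were compared with the lungs of rats that had inhaled filtered air, 1 day after the end of the exposure, across all genes. Fracking sand dust comes from the silica-rich sand that is pumped into wells during hydraulic fracturing. The 10 libraries were the 5 dust libraries (rats 27, 29, 30, 31 and 32) and the 5 air libraries (rats 17, 18, 19, 20 and 21) of that day and study, out of 64 in the whole series, and each stands for 1 male Sprague-Dawley rat, an outbred strain. All rats spent 6 hours a day for 4 days in a whole-body inhalation chamber, dust and air rats alike, lived under a 12-hour light-dark cycle, and gave 1 piece of lung for total RNA that was depleted of ribosomal RNA. The labels give a body weight but no age, and no hour at which the lungs were taken. The dust rats carried title numbers 27 to 32 and the air rats 17 to 21, so the exposure cannot be told apart from whatever those numbers follow, such as an order of handling. The labelled tissue was checked against its defining genes: Sftpc, the surfactant protein C gene of alveolar type 2 cells, measured 7242 to 11661 CPM in dust rats and 7047 to 11569 CPM in air rats, and Scgb1a1, the secretory protein gene of airway club cells, measured 2203 to 3206 CPM in dust rats and 1066 to 2596 CPM in air rats. Levels are given in CPM, counts scaled to a common library total and by TMM factors, which correct for differences in library makeup.

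Lung epithelium and macrophages are the first cells to meet inhaled mineral particles, and textbook responses to silica include release of cytokines and chemokines, recruitment of neutrophils and, later, matrix deposition. Most lung cells also carry a circadian clock, in which ARNTL (also called BMAL1) pairs with CLOCK or NPAS2 to switch on the Per, Cry, Nr1d, Bhlhe and Dbp genes. PER and CRY proteins then block that pair, and the NR1D receptors, also called REV-ERB, repress Arntl itself. Arntl therefore peaks when Dbp and Nr1d1 are low, and the level of each of these genes depends on the time of day.

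Library totals ran from 3420235 to 10282782 counts in dust rats and from 6420121 to 10039821 counts in air rats. Dust rat 27 had the lowest total and the lowest median Spearman correlation with its own group, 0.960 against 0.989 to 0.992 for the other dust rats. Air rat 17 lay apart on the second principal component of log2 CPM, and its long genes were high relative to its short genes, by 0.43 on the log2 scale between the outer quartiles of gene span. The mitochondrial ribosomal RNAs Rnr1 and Rnr2 took 0.493% to 2.62% of counts in dust rats and 0.0961% to 3.01% in air rats, with the highest shares in dust rat 27 and air rat 21. The shares averaged 1.05% ± 0.888 in dust rats and 0.734% ± 1.28 in air rats (SD, n = 5 each), and the difference of 0.314 percentage points did not pass an exact two-sided permutation test (p = 0.5; the smallest p that 252 splits allow is 0.00794). Without air rat 21 the difference was 0.884 percentage points, with p = 0.0238 in the same exact test. That rat had the highest share of the air rats, so leaving it out had to raise the difference. Without dust rat 27, the highest dust rat, the difference was -0.0772 percentage points and did not pass.

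Of 15668 genes tested, 8 passed an adjusted p of 0.05 in edgeR's quasi-likelihood test, or 0.0511%: 5 rose (0.0319%) and 3 fell (0.0191%). An unadjusted p under 0.05 was reached by 2928 genes. Of the 8 genes, 4 belonged to the circadian clock, where Arntl fell and Dbp, Bhlhe40 and Bhlhe41 rose, and 4 lay outside it, where Tspan15 and Cpped1 rose and Itgae and LOC102551236 fell. For 6 of the 8 the 5 dust rats did not overlap the 5 air rats, a separation seen in 3.43% of all genes tested (1.21% with dust higher and 2.22% with dust lower). The 8 were called on these same rats, so their separation is no independent support.

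Of the clock genes, the activator Arntl fell while the output factor Dbp and the repressors Bhlhe40 and Bhlhe41 rose. Values per rat are given in the order of the rat numbers above. Arntl, the central activator, measured 44, 37.7, 41.1, 31 and 40.3 CPM in dust rats, against 81.9, 70.1, 76.5, 71.5 and 65.6 CPM in air rats. Every dust rat lay below every air rat, and the highest dust rat was rat 27. The dust over air difference was -0.92 ± 0.14 (SE, with an adjusted p of 0.00357) on the log2 scale. Clock, which encodes the partner of ARNTL, measured 131, 163, 164, 159.7 and 169 CPM in dust rats, against 235, 180.3, 180.0, 189 and 176 CPM in air rats. Its groups did not overlap either, but its log2 fold change of -0.28 ± 0.07 (SE, with an adjusted p of 0.083) did not pass. Npas2, the alternative partner, overlapped between groups, at 17.5 to 48.3 CPM in dust rats and 20.3 to 35.7 CPM in air rats, and its highest dust value came from dust rat 27.

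Dbp, a transcription factor gene that ARNTL and CLOCK drive and that in turn acts on D-box elements, measured 14.8, 34.3, 25.5, 49.7 and 29.4 CPM in dust rats, against 3.23, 4.81, 5.91, 8.18 and 6.87 CPM in air rats. The lowest dust rat, rat 27, was still above the highest air rat, and dust rat 31 was the highest. On the log2 scale Dbp rose by 2.42 ± 0.44 (SE, with an adjusted p of 0.0298). Tef, which encodes a relative of DBP, measured 105, 185, 171, 194 and 168 CPM in dust rats, against 97.4, 109, 118, 113 and 96.8 CPM in air rats. Of its dust rats, only rat 27 lay within the range of the air rats, and its log2 fold change was 0.63 ± 0.13 (SE, with an adjusted p of 0.0508), just short of the threshold. Without dust rat 27, where 16 of 15635 genes passed (0.102%; 0.0576% rose and 0.0448% fell), Tef rose by 0.75 ± 0.11 (SE, with an adjusted p of 0.00361). Nfil3, which encodes a repressor that competes for the same D-box elements, measured 11.3 ± 2.8 CPM in dust rats and 15.1 ± 1.25 CPM in air rats (SD, n = 5 each) and did not pass (log2 fold change -0.48 ± 0.17, adjusted p = 0.132).

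Bhlhe40 and Bhlhe41 encode the repressors DEC1 and DEC2, which bind the same E-box as the ARNTL-CLOCK pair. Bhlhe40 measured 37.2, 37.3, 38.5, 35.1 and 34.6 CPM in dust rats, against 24.4, 25.3, 25.1, 27.2 and 28.5 CPM in air rats. Both groups were tight and apart, and the log2 fold change was 0.48 ± 0.08 (SE, with an adjusted p of 0.0176). Bhlhe41 measured 13.8, 18.4, 23.2, 21.4 and 20.3 CPM in dust rats, against 7.06, 11.1, 11.9, 9.34 and 16.2 CPM in air rats. Air rat 21 and dust rat 27 overlapped, and the other rats of the groups did not. Bhlhe41 rose by 0.81 ± 0.16 (SE, with an adjusted p of 0.0317) on the log2 scale.

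The promoters of these genes are shown because ARNTL and the DEC proteins read the E-box, NR1D and ROR receptors the ROR element, and DBP, TEF and NFIL3 the D-box. Each runs 5′ to 3′ from 250 bases before to 50 bases after the RefSeq start, on the rat assembly GRCr8, which is not the build of the counts. Capitals mark the letters CACGTG (E-box), AGGTCA (the core of a ROR element) or TTATGTAA (D-box), searched on both strands, where the E-box reads the same on both. These letters stand in 6.42%, 16.2% and 0.893% of the 33469 promoters of the same length.
Arntl (chr1:176766078-176766377, plus strand): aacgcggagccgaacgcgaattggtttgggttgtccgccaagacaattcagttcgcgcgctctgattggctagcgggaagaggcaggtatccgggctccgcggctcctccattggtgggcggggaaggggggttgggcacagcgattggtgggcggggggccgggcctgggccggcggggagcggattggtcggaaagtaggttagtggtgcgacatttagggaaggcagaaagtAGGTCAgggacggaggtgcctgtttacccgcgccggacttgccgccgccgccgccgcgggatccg
Bhlhe40 (chr4:143174200-143174499, plus strand): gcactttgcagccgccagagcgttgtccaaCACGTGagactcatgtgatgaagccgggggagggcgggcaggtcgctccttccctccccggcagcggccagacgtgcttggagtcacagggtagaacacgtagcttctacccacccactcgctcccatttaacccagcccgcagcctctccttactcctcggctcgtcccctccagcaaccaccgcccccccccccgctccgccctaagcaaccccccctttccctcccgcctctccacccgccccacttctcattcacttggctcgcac
Bhlhe41 (chr4:180569306-180569605, minus strand): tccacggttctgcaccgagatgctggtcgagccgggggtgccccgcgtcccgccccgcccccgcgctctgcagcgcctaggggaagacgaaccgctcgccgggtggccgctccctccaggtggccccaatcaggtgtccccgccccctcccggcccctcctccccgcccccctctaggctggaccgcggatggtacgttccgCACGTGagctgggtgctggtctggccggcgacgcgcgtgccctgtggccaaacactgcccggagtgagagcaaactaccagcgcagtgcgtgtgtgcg
Tef (chr7:115206577-115206876, plus strand): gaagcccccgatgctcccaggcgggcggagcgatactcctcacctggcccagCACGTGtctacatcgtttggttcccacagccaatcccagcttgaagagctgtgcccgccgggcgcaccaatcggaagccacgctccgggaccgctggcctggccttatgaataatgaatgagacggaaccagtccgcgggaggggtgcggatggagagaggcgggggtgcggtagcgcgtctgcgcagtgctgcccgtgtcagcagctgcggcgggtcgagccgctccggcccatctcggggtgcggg
Dbp (chr1:105312006-105312305, plus strand): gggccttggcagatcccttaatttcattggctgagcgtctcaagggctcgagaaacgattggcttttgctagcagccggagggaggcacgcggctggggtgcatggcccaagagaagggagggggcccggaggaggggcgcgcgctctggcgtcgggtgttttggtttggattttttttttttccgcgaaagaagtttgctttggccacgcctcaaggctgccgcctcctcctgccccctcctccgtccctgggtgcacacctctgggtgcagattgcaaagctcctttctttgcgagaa
Arntl, which RefSeq lists as Bmal1, held an AGGTCA whose first base lay at position -15 from the start. Bhlhe40, Bhlhe41 and Tef each held 1 E-box, at positions -220, -48 and -198, and the window of Dbp held none of the 3 motifs. Of the 19 genes on the circadian lists, 16 had a RefSeq promoter in the table used, and 5 of these held an E-box, 2 an AGGTCA and 1 a D-box. Among the 8 called genes, 6 had an entry, and the windows of Itgae and Tspan15 held none of the 3 motifs.

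The Nr1d and Per3 genes, whose products feed back on the clock, had larger differences than most called genes and wider spread. Nr1d1, the gene of the receptor that represses Arntl, measured 60.3, 57.4, 57.4, 71.1 and 62.5 CPM in dust rats, against 1.84, 4.81, 12.3, 10.9 and 19.3 CPM in air rats. No other clock gene had a larger log2 fold change, at 2.61 ± 0.70 (SE, with an adjusted p of 0.0893), and its groups lay far apart. The air rats ran from the lowest value in rat 17 to the highest in rat 21, and the gene did not pass. Its relative Nr1d2 measured 68.6, 161, 147, 185 and 162 CPM in dust rats, against 43, 45.8, 62.4, 59.3 and 77.5 CPM in air rats. Only dust rat 27 reached into the air range for Nr1d2, and the log2 fold change was 1.34 ± 0.30 (SE, with an adjusted p of 0.0676), against 1.5 ± 0.29 (SE, with an adjusted p of 0.0366) without that rat, where the gene passed. The period gene Per3 measured 26.8, 34.9, 31.4, 40.8 and 32.4 CPM in dust rats, against 21.5, 14.9, 16, 16.5 and 16.2 CPM in air rats. Its groups did not overlap, with a log2 fold change of 0.99 ± 0.29 (SE, with an adjusted p of 0.0988).

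Per1 and Per2, which also respond to acute signals such as glucocorticoids, overlapped between groups. Per1 measured 21.9 to 43.7 CPM in dust rats and 25.1 to 88.3 CPM in air rats, a log2 fold change of -0.74 ± 0.28 (SE, with an adjusted p of 0.163), and Per2 measured 13.8 to 24.9 CPM in dust rats and 10.2 to 21.5 CPM in air rats, a log2 fold change of 0.47 ± 0.21 (SE, with an adjusted p of 0.219). The cryptochromes had opposite signs. Cry1 had a log2 fold change of -0.71 ± 0.21 (SE, with an adjusted p of 0.0995), with 9.33 to 13.5 CPM in dust rats and 13.4 to 21.7 CPM in air rats, and Cry2 of 0.43 ± 0.13 (SE, with an adjusted p of 0.097), with 40.7 to 59.98 CPM in dust rats and 29.3 to 40.2 CPM in air rats. Ciart and Rora, a clock repressor gene and a ROR receptor gene, were close to even between groups, at -0.13 ± 0.12 (SE, with an adjusted p of 0.591) and 0.01 ± 0.07 (SE, with an adjusted p of 0.954). In all, 17 of the 19 listed clock genes were tested, and 3 rose, 1 fell and 13 did not pass. Their levels depend on the hour, which the labels do not give, so dust and hour of collection cannot be told apart for them. Groups did not overlap for 7 of the 17 (3.43% of all genes tested), 5 with dust higher (1.21%) and 2 with dust lower (2.22%). Without air rat 21, 7 rose and 3 fell, where 4.56% of all genes tested rose and 2.5% fell.

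**Figure D1:**
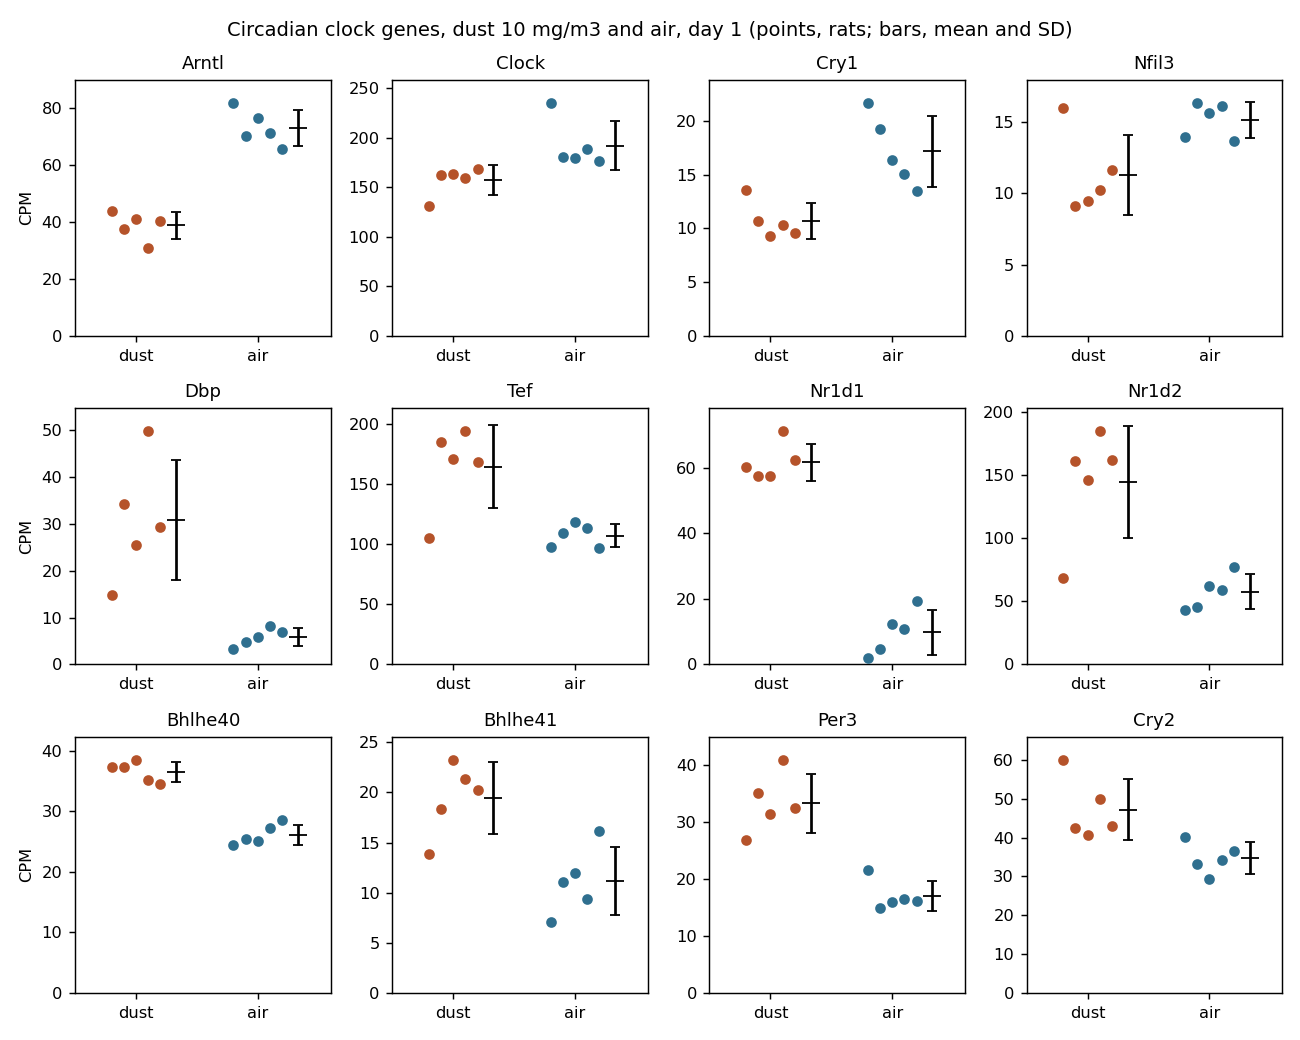
Levels in CPM (y axis) of 12 circadian clock genes in the 5 dust rats (left) and the 5 air rats (right) of day 1, with rats in the order of their numbers; points are rats and bars the mean and SD. Arntl lies at 31 to 44 CPM in dust rats and 65.6 to 81.9 CPM in air rats, and Nr1d1 at 57.4 to 71.1 CPM in dust rats and 1.84 to 19.3 CPM in air rats.

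Outside the clock, 2 genes rose and 2 fell. Tspan15 encodes a tetraspanin that partners the membrane protease ADAM10. It measured 59.1, 52.2, 49.8, 50.5 and 51.6 CPM in dust rats, against 28.1, 30.6, 40.8, 38.2 and 40.5 CPM in air rats. Every dust rat was above every air rat, and dust rat 27 stood highest. Tspan15 rose by 0.55 ± 0.10 (SE, with an adjusted p of 0.0261) on the log2 scale. Cpped1, the gene of a calcineurin-like phosphoesterase, measured 21.2, 21, 21.6, 24.8 and 25.2 CPM in dust rats, against 11.7, 15.5, 16.4, 15 and 21.1 CPM in air rats. Air rat 21 sat among the dust rats, and the other air rats below them. Cpped1 rose by 0.51 ± 0.10 (SE, with an adjusted p of 0.0426) on the log2 scale.

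Itgae encodes the CD103 integrin chain, by which resident T cells and some dendritic cells hold on to E-cadherin of epithelium. It measured 5.54, 7.1, 7.81, 6.57 and 8.93 CPM in dust rats, against 12.1, 10.5, 15.9, 11.8 and 13.2 CPM in air rats, with no overlap. The log2 fold change of Itgae was -0.78 ± 0.14 (SE, with an adjusted p of 0.0176), and in bulk tissue fewer cells of a type and less RNA per cell cannot be told apart. On the T cell list Itgae was the only member that passed, and 5 of 16 tested members were above 0 (median log2 fold change -0.10). On the dendritic cell list, which also holds Itgae, 4 of 11 were above 0 (median -0.01). The summed level of the T cell list was 145 to 183 CPM in dust rats and 146 to 188 CPM in air rats, so the list as a whole overlapped. LOC102551236, an uncharacterised locus, measured 0.923, 0.538, 1.22, 0.483 and 0.735 CPM in dust rats, against 2.76, 1.99, 2.46, 3.04 and 1.92 CPM in air rats. Levels were low but apart in all 10 rats, and the log2 fold change was -1.64 ± 0.29 (SE, with an adjusted p of 0.0176).

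A further 15 genes had an adjusted p of 0.0508, which is just above the threshold, and for 14 of them, all but Tef, the groups did not overlap. Over all genes tested, 3.43% had groups that did not overlap. The 15 were chosen after their values were seen, by their p on these same rats, so their separation is no independent support. Of the 15, 9 were above 0 and 6 below. Muc1, a membrane mucin gene of airway and alveolar epithelium, measured 177, 127, 134, 142 and 129 CPM in dust rats, against 82.9, 86, 69.6, 96.6 and 126 CPM in air rats. Air rat 21 came within 1.17 CPM of the lowest dust rat, and the log2 fold change of Muc1 was 0.61 ± 0.13 (SE, with an adjusted p of 0.0508). Sdc1, the gene of the epithelial heparan sulphate proteoglycan syndecan-1, measured 196 to 291 CPM in dust rats and 145 to 178 CPM in air rats, a log2 fold change of 0.48 ± 0.10 (SE, with an adjusted p of 0.0508). Cldn3, a tight junction gene, had a log2 fold change of 0.48, Cited2, a co-regulator gene of CBP and p300, of 0.71, and the kinase gene Tlk1 of 0.92. Cxcr1, a chemokine receptor gene expressed by neutrophils, measured 13.2, 14.7, 15.1, 16.6 and 14.2 CPM in dust rats, against 5.99, 9.0, 9.36, 5.61 and 10.5 CPM in air rats. Its groups did not overlap (log2 fold change 0.86 ± 0.18, adjusted p = 0.0508), while 5 of 11 tested genes of the neutrophil list were above 0 and their summed level was 99.7 to 149.6 CPM in dust rats and 102 to 167 CPM in air rats. With the older form of the edgeR deviances, the default of this version, 20 genes passed (0.128%; 0.0766% rose and 0.0511% fell), and all 8 were among them.

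**Figure D2:**
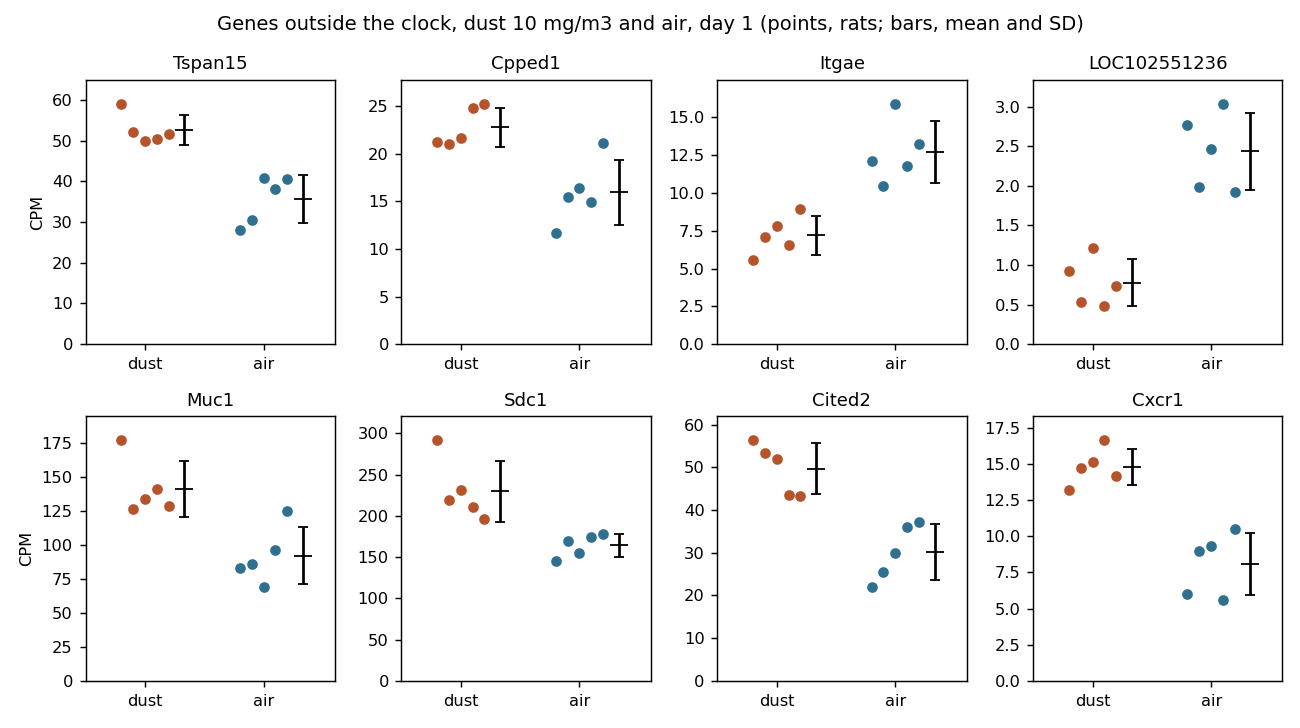
Levels in CPM (y axis) of the 4 called genes outside the clock (top row) and of 4 genes at an adjusted p of 0.0508 (bottom row) in the 5 dust rats (left) and the 5 air rats (right) of day 1; points are rats and bars the mean and SD. Tspan15 lies at 49.8 to 59.1 CPM in dust rats and 28.1 to 40.8 CPM in air rats, and air rat 21 is the highest air rat for Cpped1, Muc1, Cited2 and Cxcr1.

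The other 5 air groups of the series place these levels, with the caveat that the studies of the 2 doses were scaled separately. Tspan15 averaged 52.6 CPM in dust rats and 35.6 CPM in air rats of day 1, while the other air groups averaged 46.1 to 51.5 CPM. The mean of the day 1 dust rats was thus the nearer one to the other air groups for this gene. For 7 of the 8 called genes the day 1 air mean was the lowest or the highest of the 6 air groups, on the side away from dust. LOC102551236 was the exception. For Dbp the other air groups averaged 7.12 to 11.3 CPM and for Arntl 64.1 to 69.7 CPM. For all 8 called genes the dust mean lay outside the air means of both studies. The margin was small for Bhlhe40, at 36.53 CPM in dust rats against at most 36.52 CPM in the other air groups. Single air rats still reached the dust range. In the day 27 air group of the 30 mg/m3 study Dbp rose to 26.9 CPM and Arntl fell to 43.2 CPM. Nr1d1, which was not called, reached 95.5 CPM there, against 57.4 to 71.1 CPM in dust rats of day 1. For Itgae the dust mean of 7.19 CPM and the air mean of 12.7 CPM lay on either side of the other air groups, at 8.51 to 10.7 CPM.

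Genes known for the response of the lung to particles did not pass. Of a panel of 14, 11 were tested, 0 were called by edgeR, 6 were above 0 and 5 below, and Cxcl2, Il6 and Tnf were not tested. Lcn2, the gene of an iron-binding protein of innate defence, measured 32.6, 227, 116, 171 and 137 CPM in dust rats, against 23.8, 96.4, 71.3, 81.1 and 74.4 CPM in air rats. Dust rat 27 was within the air range and the other dust rats were above it, for a log2 fold change of 0.99 ± 0.38 (SE, with an adjusted p of 0.173). Hmox1, the oxidative stress gene of heme breakdown, measured 28.6 to 50.8 CPM in dust rats and 14.3 to 44.3 CPM in air rats (log2 fold change 0.43 ± 0.25, adjusted p = 0.348). The neutrophil chemokine gene Cxcl1 had a log2 fold change of 0.45 ± 0.31 (SE, with an adjusted p of 0.437), the monocyte chemokine gene Ccl2 of -0.31 ± 0.26 (SE, with an adjusted p of 0.513), and the interleukin gene Il1b of -0.12 ± 0.16 (SE, with an adjusted p of 0.715). Spp1, the osteopontin gene of activated macrophages, ranged widely in both groups, at 2.77 to 14.3 CPM in dust rats and 4.61 to 24.2 CPM in air rats, and Mmp12 and Arg1 had log2 fold changes of -0.24 and -0.18.

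On the lists of inflammation, 9 of 19 tested chemokine and cytokine genes were above 0 (median log2 fold change -0.09), 4 of 14 of the inflammasome list (-0.06), 11 of 14 of the NF-kB list (0.12), 11 of 15 NRF2 targets (0.08) and 11 of 20 interferon response genes (0.05). Over all genes tested, 7556 of 15668 were above 0, with a median of -0.01. By edgeR 0 members of these lists were called, and by DESeq2, where 1.54% of all genes rose and 1.49% fell, 1 of 14 NF-kB genes rose. Tnip1, an NF-kB feedback gene, had groups that did not overlap, at 129.8 to 145 CPM in dust rats and 103 to 127 CPM in air rats (log2 fold change 0.24 ± 0.07, adjusted p = 0.0928). Collagen and matrix genes were above 0 in 15 of 21 (median 0.14) with all libraries and in 10 of 21 (median -0.02) without dust rat 27 and air rats 17 and 21.

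Among the other lists of stress and repair, 10 of 13 integrated stress response genes were above 0 (median 0.26), 6 of 16 heat shock genes (-0.09), 10 of 15 glucocorticoid response genes (0.10), 11 of 16 complement genes (0.08), 9 of 14 lysosome genes (0.04), 9 of 13 macrophage activation genes (0.04), 11 of 17 TGF-beta genes (0.07) and 8 of 16 cholesterol synthesis genes (0.00). By edgeR 0 members of these lists were called. By DESeq2 1 integrated stress response gene rose and 1 fell, 2 macrophage activation genes rose, and 1 gene each of the lysosome and TGF-beta lists rose. Over all genes DESeq2 called 1.54% as risen and 1.49% as fallen. Endothelial markers were above 0 in 10 of 15 (0.11), smooth muscle markers in 5 of 12 (-0.12), fibroblast markers in 5 of 12 (-0.13), B and plasma cell markers in 6 of 10 (0.09) and NK and cytotoxic cell markers in 5 of 12 (-0.13), with 0 called by edgeR and by DESeq2.

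Epithelial lists lay mostly above 0. Alveolar type 2 markers, the genes of the surfactant-making cells, were above 0 in 17 of 18 tested members, with a median log2 fold change of 0.29, and alveolar type 1 markers, of the thin gas-exchange cells, in 15 of 16 (0.12). The summed level was 27859 to 39006 CPM in dust rats and 23598 to 36202 CPM in air rats for type 2 markers and 9744 to 11114 CPM in dust rats and 8496 to 9923 CPM in air rats for type 1 markers, so both overlapped. Secretory airway markers were above 0 in 10 of 11 (median 0.80) and ciliated cell markers in 15 of 15 (0.28). With all libraries edgeR called 0 members of these 4 lists, while DESeq2 called 5 type 2 markers, 2 type 1 markers, 1 secretory and 1 ciliated marker, all as risen, where it called 1.54% of all genes as risen. In the DESeq2 fit 13 of 15 ciliated markers were above 0. Without air rat 21, 8 type 2 markers, 5 type 1 markers and 1 secretory marker rose, where 4.56% of all genes tested rose. Cldn18, the tight junction gene of alveolar epithelium, measured 697, 481, 532, 516 and 603 CPM in dust rats, against 268, 257, 294, 355 and 673 CPM in air rats. Air rat 21 lay among the dust rats and the other air rats below all of them, so the log2 fold change was 0.61 ± 0.18 (SE, with an adjusted p of 0.0995) with all rats and 0.94 ± 0.12 (SE, with an adjusted p of 0.000159) without it. The share of mitochondrial ribosomal RNA was highest in air rat 21 and dust rat 27 of their groups, as was Cldn18. The summed type 2 and ciliated markers were instead lowest of the dust rats in rat 27, at 27859 and 897 CPM. The part of the share in these values was not tested beyond the fit with it as a covariate. In that fit edgeR called 0 genes, and 1520 had an unadjusted p under 0.05. With the covariate, type 2 markers were above 0 in 18 of 18 (median 0.22) and type 1 markers in 15 of 16 (0.16). Secretory markers were above 0 in 11 of 11 (1.04) and ciliated markers in 15 of 15 (0.39). Over all genes tested in the same fit, 8009 of 15668 were above 0 (median 0.01).

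Immediate early genes, which are switched on within minutes of a stimulus, were above 0 in 20 of 23 tested members (median 0.41). By edgeR 0 were called, and DESeq2 called 3 as risen, where it called 1.54% of all genes as risen. Egr1 measured 14.1, 8.28, 7.1, 4.35 and 2.52 CPM in dust rats, against 0.768, 1.99, 1.35, 4.2 and 5.86 CPM in air rats. Dust rat 27 was the highest and the groups overlapped (log2 fold change 1.12 ± 0.39, adjusted p = 0.141). Egr2 had groups that did not overlap, at 4.46 to 8.61 CPM in dust rats and 1.23 to 3.98 CPM in air rats (log2 fold change 0.72 ± 0.22, adjusted p = 0.109). Without dust rat 27 and air rats 17 and 21 the list was above 0 in 16 of 23 (median 0.14). Proliferation genes were above 0 in 5 of 26 (median -0.11), for example Top2a at 21.5 to 30.5 CPM in dust rats and 24.6 to 47.4 CPM in air rats (log2 fold change -0.40 ± 0.18, adjusted p = 0.219). Xenobiotic metabolism genes were above 0 in 5 of 18 (median -0.16), where Fmo2, a lung flavin monooxygenase gene, measured 276 to 391 CPM in dust rats and 399 to 719.7 CPM in air rats and had groups that did not overlap (log2 fold change -0.68 ± 0.20, adjusted p = 0.0997).

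Pulmonary veins of the rat carry a sleeve of heart muscle, and its markers were above 0 in 1 of 14 (median -0.36), with a summed level of 93.2 to 743 CPM in dust rats and 109 to 1899 CPM in air rats. The groups overlapped. The highest air value came from air rat 20 alone, and the other air rats had 109 to 356 CPM. Of the 18 listed genes, Nppb was at 0 in all 10 libraries. Liver markers summed to 252 to 451 CPM in dust rats and 318 to 502 CPM in air rats, erythroid markers to 1962 to 3215 CPM in dust rats and 2245 to 3205 CPM in air rats and alveolar macrophage markers to 799 to 1277 CPM in dust rats and 913 to 1193 CPM in air rats, all overlapping. The part of these tissues in the results above was not tested.

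A group of 9 genes of RNA splicing control, the CLK kinases, LUC7-like and cyclin L genes, was picked after values were seen and is given as a description. Of the 9, 1 was above 0 (median log2 fold change -0.40). By edgeR 0 were called, and DESeq2 called 4 as fallen, where it called 1.49% of all genes as fallen. Clk1, the gene of a kinase that phosphorylates splicing factors, measured 119, 155, 141, 148 and 143 CPM in dust rats, against 217, 199, 230.3, 196 and 203 CPM in air rats. Every dust rat was below every air rat (log2 fold change -0.56 ± 0.14, adjusted p = 0.0679), and Luc7l3 and Ccnl1 had log2 fold changes of -0.51 and -0.54 with groups apart. In the study of 30 mg/m3 on the same day, with rats of its own, 9 of the 9 were above 0 (median 0.31). There Clk1 measured 181 to 227 CPM in dust rats and 110 to 242 CPM in air rats. At 10 mg/m3 0 of 9 were above 0 on day 7 (median -0.23) and 9 of 9 on day 27 (0.19). Of all genes tested, 32.7% had their sign of day 1 at 30 mg/m3 on the same day. At 10 mg/m3, 68.6% had it on day 7 and 41.6% on day 27, so changes of sign were not particular to this group.

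The number of called genes turned on single libraries. Without air rat 21, 1102 of 15618 genes passed (7.06%), 712 higher and 390 lower, and all 8 genes were among them. Without air rat 17, 1 of 15653 genes passed (0.00639%), Arntl, and leaving out any other single library gave 1 to 16 genes. Without dust rat 27 and air rats 17 and 21 together, a setting added once the data had been seen, 220 genes passed, of which 206 were among the 1102. DESeq2 called 474 genes (3.03%; 1.54% rose and 1.49% fell), of which 425 were also among the 1102, and 7 of the 8 were among the 474. Arntl passed in 19 of 20 alternatives, with adjusted p from 6.56e-07 to 0.0569, and Cpped1 in 8 of 20, with adjusted p up to 0.326. All 8 kept their sign in every alternative run. The alternatives reuse the rats on which the 8 were called, so the kept signs are no independent support.

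**Figure D3:**
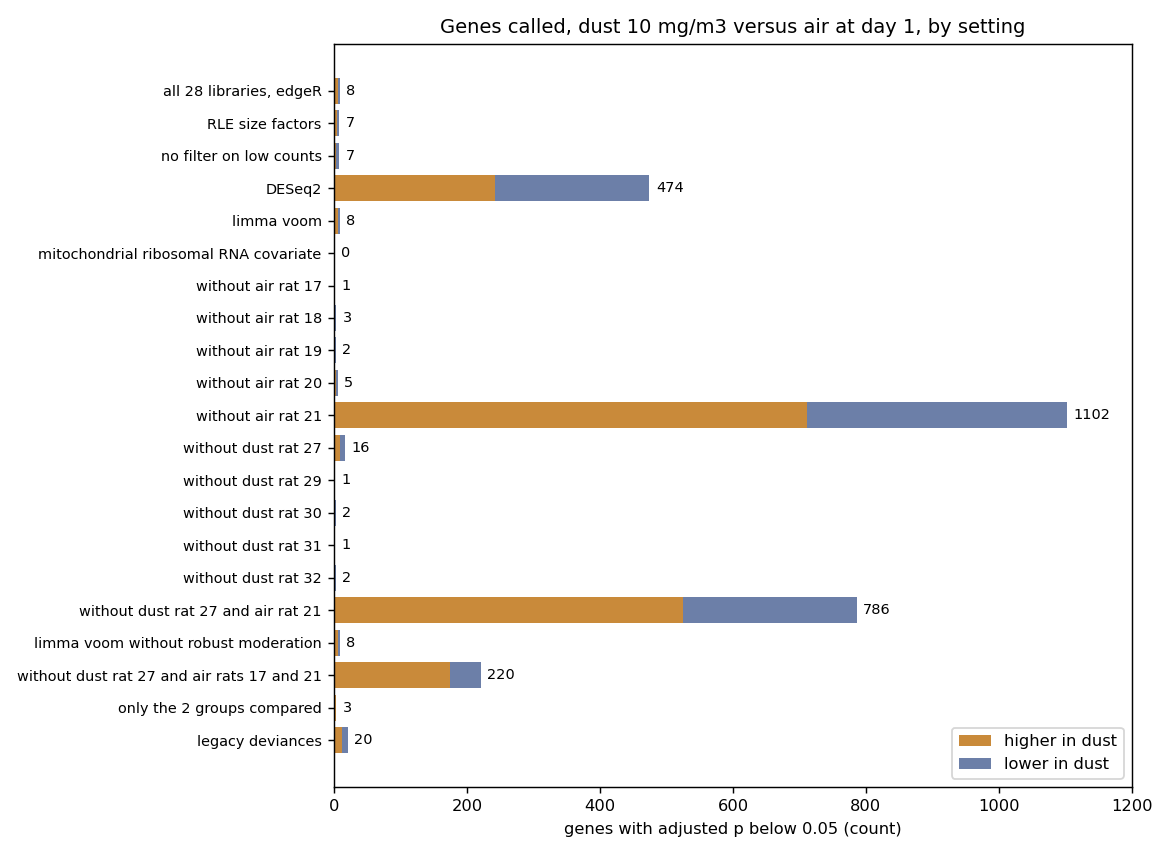
Number of genes with an adjusted p below 0.05 (x axis) for dust over air at day 1 under each alternative (rows), split into genes higher and lower in dust; the number beside each bar is the total. Leaving out air rat 21 gives 1102 genes, while the fit of all 28 libraries of the study gives 8 and the covariate of mitochondrial ribosomal RNA 0.

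The largest differences without air rat 21 were of several kinds. Among the 10 largest rises with a mean of at least 1 CPM were Nr1d1 at 3.02 and Dbp at 2.50 on the log2 scale, together with both mitochondrial ribosomal RNAs, Rnr1 at 4.21 and Rnr2 at 2.50. The largest was the uncharacterised locus LOC103693756, at 7354, 187, 179, 321 and 211 CPM in dust rats, against 31.8, 89.6, 97.9, 94.5 and 636 CPM in air rats, where rats 27 and 21 were again the highest of their groups. Rps16, a gene of the small ribosomal subunit, measured 219, 97.5, 99.5, 131 and 124 CPM in dust rats, against 7.99, 22.1, 34.1, 68 and 252 CPM in air rats. Its lowest value was in air rat 17 and its highest in air rat 21, in the same order as the mitochondrial ribosomal RNA share of those 2 rats. Rps16 was named for its rise without air rat 21, which favours low values in the other air rats. Its likeness to the share is thus no independent support. Bst2, an interferon-responsive gene, measured 185, 52.7, 57, 70.7 and 67 CPM in dust rats, against 12.7, 24.8, 36.2, 43 and 93.4 CPM in air rats, and Rnf5, a ubiquitin ligase gene, measured 30.5, 11.5, 11.2, 14.8 and 15.3 CPM in dust rats, against 1.23, 8.16, 4.43, 6.19 and 18.9 CPM in air rats. Both were also lowest in air rat 17, and highest in dust rat 27, which had the second highest share. Bst2 and Rnf5 were chosen after their values were seen. With all rats neither passed, at 0.98 ± 0.36 (SE, with an adjusted p of 0.151) and 0.93 ± 0.34 (SE, with an adjusted p of 0.15) on the log2 scale. Among the 10 largest falls, 6 overlapped between groups. Eif3h, a translation initiation factor gene, measured 0, 0.215, 0.203, 0.29 and 0.105 CPM in dust rats, against 0.307, 23.5, 0.246, 0.117 and 0.101 CPM in air rats, and Shbg measured 0.615, 0.968, 0.507, 0.29 and 1.05 CPM in dust rats, against 0.921, 15.1, 1.11, 0.35 and 0.606 CPM in air rats, so both falls rested on air rat 18. LOC100911372 rested on air rats 17 and 20, at 36.4 and 57.9 CPM, where the other 8 rats had at most 1.47 CPM.

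**Figure D4:**
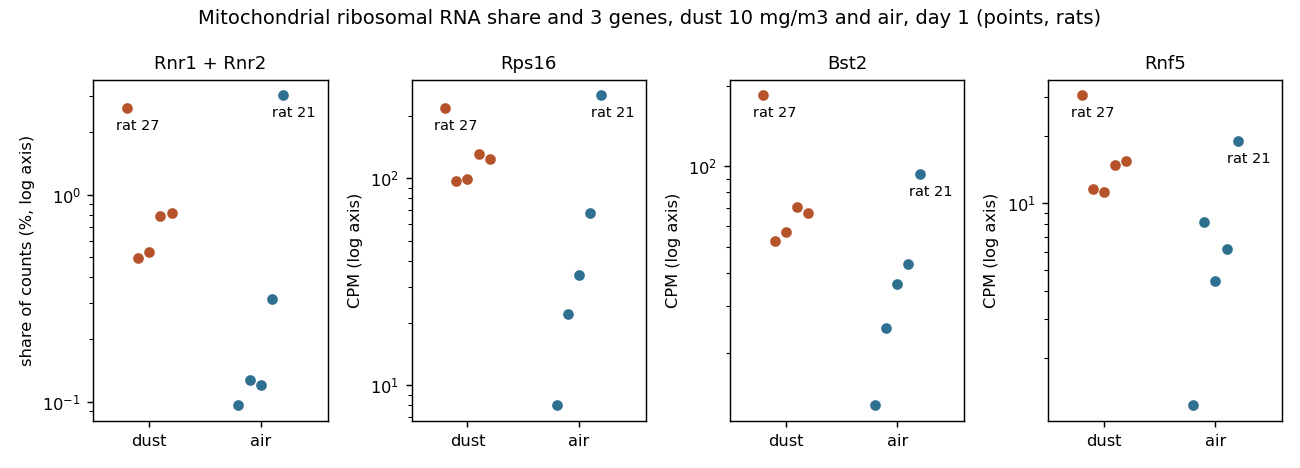
Share of counts on the mitochondrial ribosomal RNAs Rnr1 and Rnr2 in percent (first panel) and levels of Rps16, Bst2 and Rnf5 in CPM (other panels), all on log axes, in the 5 dust rats (left) and the 5 air rats (right) of day 1; points are rats in the order of their numbers. The share is 2.62% in dust rat 27 and 3.01% in air rat 21, and 0.0961% in air rat 17.

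The effect of day 1 was set beside later days of the same study, each with its own dust and air rats. At day 7 and at day 27, 0 of 15668 genes passed by edgeR, by DESeq2 or by limma voom, with 648 and 420 genes at an unadjusted p under 0.05. The log2 fold change of Arntl was -0.92 at day 1, -0.29 ± 0.13 (SE) at day 7 and -0.70 ± 0.15 at day 27, and that of Dbp 2.42, 1.09 ± 0.45 and 1.74 ± 0.47. Both genes kept their sign on all 3 days. Of the 17 clock genes, 16 had the sign of day 1 at day 7 and 15 at day 27, where 68.6% and 41.6% of all genes tested had it. At 30 mg/m3 the sign was that of day 1 at 10 mg/m3 for 11 of the 17 on day 1, 5 on day 7 and 13 on day 27, where 32.7%, 36.5% and 37% of all genes tested had it. Tspan15 and Bhlhe40, by contrast, had log2 fold changes of -0.07 and -0.04 at day 7. Clock genes regulate each other, so the signs of the 17 are not independent of each other. Dust and hour of collection cannot be told apart for them on any of these days, since the labels give no hour. The difference between the dust effects of day 1 and day 7 passed for 0 genes by edgeR, DESeq2 and limma voom (520 at an unadjusted p under 0.05), and that of day 1 and day 27 for 0 by edgeR and limma voom and 5 by DESeq2 (2107 at an unadjusted p under 0.05), so edgeR did not show a gene with a different effect by day. Without air rat 21 the second of these differences passed for 141 genes.

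At 30 mg/m3 on day 1, tested in the fit of its own study, 0 of 15551 genes passed by edgeR, and 2389 had an unadjusted p under 0.05. In the fit of both studies edgeR called 1 gene, DESeq2 4 and limma voom 0. The dust effect at 10 mg/m3 minus that at 30 mg/m3 passed for 1631 of 16190 genes (10.1%), 691 above 0 (4.27%) and 940 below (5.81%). Dose and study cannot be told apart here, since each dose had its own air rats. Of the 8 genes called at 10 mg/m3, 7 passed, all but Bhlhe41 (adjusted p = 0.0841); the difference contains the effect by which they were called, so this is no independent support. Tspan15 had 0.55 at 10 mg/m3 and -0.35 ± 0.10 (SE) at 30 mg/m3 on the log2 scale, a difference of 0.88 ± 0.15 (SE, with an adjusted p of 0.00159). Dbp had 2.42 and 0.16 ± 0.49, a difference of 2.27 ± 0.70 (SE, with an adjusted p of 0.0316). Arntl measured 60.1 ± 13 CPM in dust rats and 64.1 ± 13.1 CPM in air rats of the 30 mg/m3 study (SD, n = 6 each), against 38.8 ± 4.9 CPM and 73.1 ± 6.24 CPM in those of the 10 mg/m3 study (SD, n = 5 each), and its difference of effects was -0.86 ± 0.22 (SE, with an adjusted p of 0.0121).

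The number of genes that differed between doses was 109 (0.673%; 0.0988% above 0 and 0.574% below) with the share of mitochondrial ribosomal RNA as a covariate, 452 without air rat 17, 851 without dust rat 27, 2603 without air rat 21 and 3069 without air rats 51 and 53 of the 30 mg/m3 study. Of all genes tested at both doses, 32.7% had the same sign on day 1, so opposite signs were not particular to the lists below. Several lists had opposite signs at the 2 doses. Alveolar type 1 markers were above 0 in 15 of 16 at 10 mg/m3 and 0 of 16 at 30 mg/m3, type 2 markers in 17 of 18 and 7 of 18, immediate early genes in 20 of 23 and 5 of 23, and proliferation genes in 5 of 26 and 24 of 26. Over all genes tested, 7556 of 15668 and 8603 of 15551 were above 0. In the difference of effects 6 of 16 type 1 markers, 8 of 18 type 2 markers and 4 of 24 immediate early genes passed above 0, where 4.27% of all genes did, and 2 of 26 proliferation genes passed below 0, a share near the 5.81% of all genes. Cldn18 had a difference of 1.1 ± 0.30 (SE, with an adjusted p of 0.0184). Ciliated cell markers were above 0 at both doses, in 15 of 15 and 14 of 15, and Lcn2 had log2 fold changes of 0.99 and 1.07.

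**Figure D5:**
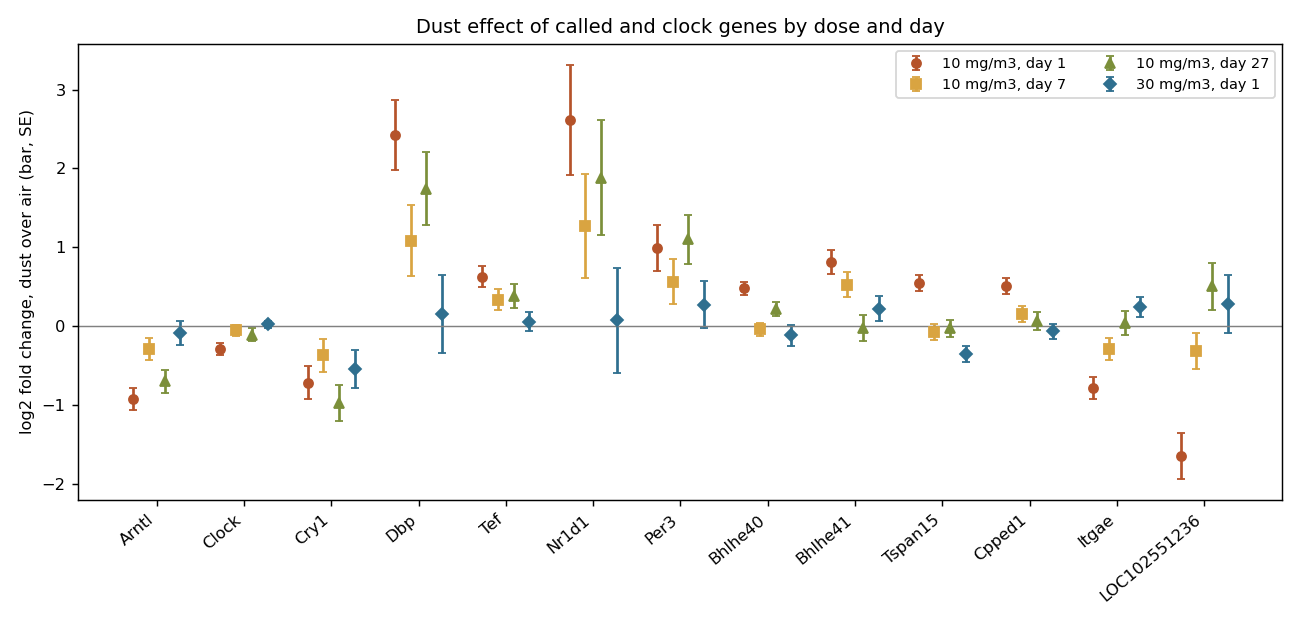
Log2 fold change of dust over air with its SE (y axis) for clock genes and the other called genes (x axis), at 10 mg/m3 on days 1, 7 and 27 and at 30 mg/m3 on day 1. Dbp stands at 2.42, 1.09 and 1.74 on the 3 days at 10 mg/m3 and at 0.16 at 30 mg/m3, while Tspan15 is above 0 at day 1 of 10 mg/m3 only.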

How the data were processed

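Each library holds counts of reads per gene symbol, as whole numbers deposited by the authors without normalisation. The submitters' processing notes name HISAT2 2.1.0, HTSeq 0.6.1, SAMtools 1.8, Trimmomatic 0.35 and bcl2fastq 2.19, and the build Rnor_6.0. The annotation and strand setting used for counting are not given there, which leaves overlapping, antisense and duplicated genes uncertain. The test was edgeR 4.0.16 in R 4.3.3 (TMM, filterByExpr with minimum count 10 and total 15, robust quasi-likelihood F test, Benjamini-Hochberg adjustment over all genes tested). The 28 libraries of the 10 mg/m3 study in 6 groups entered 1 fit, and all 64 libraries the fit of the difference between doses. Alternatives used DESeq2 1.42.0, limma 3.58.1 voom, other scaling and filters, a covariate and left-out libraries. All 20 pairs of libraries within the 2 groups differed by more than counting noise (lowest chi-square over its degrees of freedom, 3.73). Only the titles say that libraries are separate rats. The tests set each difference against the spread between rats, estimated over all groups of the fit and not only the 2 compared. Gene spans came from GRCr8 by symbol (82.1% of genes tested). The procedure was tested on simulated data. The 42 gene lists and the comparison were chosen with earlier results of these data known. Named are all called genes, the clock lists and the panel of 14 genes, up to 4 list members with the smallest p, and the 10 largest rises and falls past the threshold without air rat 21 at a mean of at least 1 CPM; exceptions are marked where they stand.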

Additional observations from a re-analysis of the deposited data

Results flagged for a closer look

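Of 102 groups of 5 rats looked at (51 measures in dust and in air), 27 held a rat that stood far from the other 4, or 26.5%; the value is the gap to the nearest rat over the range of the group. Chance alone gives about 1 in 20 for groups not chosen by their values, and that rate does not apply here, since many of the genes were named for large differences without air rat 21, a choice that favours genes with 1 outlying rat. Dust rat 27 made up 14 of them. It was high for LOC103693756 (0.98), LOC100911319 (0.904), Rnr1 (0.882), Npas2 (0.873), the mitochondrial ribosomal RNA share (0.846), Rnr2 (0.837), Tspan15 (0.747), Cyp26c1 (0.737) and Rps16 (0.721), and low for the library total (0.85), Ciart (0.782), Clock (0.763), Dsg3 (0.723) and Tef (0.714). Air rat 21 was high for Rnr1 (0.976), the mitochondrial ribosomal RNA share (0.925), LOC100911319 (0.916), Rnr2 (0.911), LOC103693756 (0.891) and Rps16 (0.754). Air rat 17 was high for Clock (0.78), Per3 (0.758) and LOC102554570 (0.715), air rat 18 for Eif3h (0.991) and Shbg (0.949), and dust rat 31 for Sftpd (0.73) and Ccl2 (0.714). Gaps in several genes of the same rat are not independent of each other.

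For 18 of 50 named genes the dust effect of day 1 at 10 mg/m3 minus that at 30 mg/m3 passed edgeR's test over all genes, where 10.1% of genes did. The differences on the log2 scale were above 0 for LOC103693756 (4.22), Dbp (2.27), LOC100911319 (1.69), Egr1 (1.53), Tspan15 (0.884), Scgb1a1 (0.847), Bhlhe40 (0.582), Tef (0.556), Cpped1 (0.555) and Cry2 (0.535). They were below 0 for Hsd17b13 (-2.5), LOC102548359 (-2.29), LOC103690534 (-2.08), LOC102551236 (-1.95), LOC102554570 (-1.75), Itgae (-1.05), Arntl (-0.857) and Clock (-0.328). Most of these genes were named because of their effect at 10 mg/m3, and the cause of the differences was not tested.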

How the results depend on the processing

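The count of 8 genes at day 1 was 7 with RLE size factors, 7 without a filter on low counts and 8 with limma voom, with or without robust moderation. It was 474 with DESeq2, 20 with the older deviances, 3 with only the 2 groups compared and 0 with the mitochondrial ribosomal RNA covariate in edgeR (1520 genes had an unadjusted p under 0.05). Leaving out 1 of the 10 libraries gave 1 to 1102 genes, leaving out dust rat 27 and air rat 21 gave 786, and leaving out dust rat 27 and air rats 17 and 21 gave 220. The 1631 genes that differed between doses were 951 without a filter, 109 with the covariate, 452 to 2603 with 1 library left out, 657 with the 3 libraries left out and 3069 without air rats 51 and 53 of the 30 mg/m3 study. The difference between day 1 and day 7 stayed at 0 in the alternatives run. The difference between day 1 and day 27 was 5 with DESeq2, 1 with the covariate, 0 to 141 with 1 library left out, 154 without dust rat 27 and air rat 21 and 26 without the 3 libraries. The cause of these moves was not tested.

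The dust minus air difference of 0.314 percentage points in mitochondrial ribosomal RNA was 1.66 on the log2 scale and -0.0772 to 0.884 with 1 library left out, below 0 without dust rat 27. Log2 fold changes of some genes that were not called crossed 0. With 1 library left out, Rora ran from -0.0208 to 0.0875, Rnr1 from -0.76 to 4.21, Rnr2 from -0.0376 to 2.50, Pln from -0.78 to 0.35, Ttn from -1.08 to 0.37 and Pck1 from -0.28 to 0.0283. Rora was -0.0268 without dust rat 27 and air rat 21, and with the covariate Ciart was 0.0393, Il1b 0.0427, Mcpt2 0.23 and Fgb 0.0930. The 21 of 40 lists with a median above that of all genes were 23 of 42 without a filter and 22 of 40 without air rat 21. No paired analysis was possible because every rat has a number of its own. The low total of dust rat 27 limits genes of few counts, and 2 air libraries that stand apart limit what 5 against 5 rats can show.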
